A study of Homo sapiens with 8 samples.

Results

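The transcription factor p53 acts largely through the genes it switches on, and 9 of these targets were followed here from messenger RNA to ribosome footprint: MDM2, PPM1D, ZMAT3, CDKN1A, BTG2, GADD45A, RRM2B, SESN1 and TP53INP1. They were taken by gene symbol from both deposited tables, where each has 1 row, so they are 9 of 58302 genes. The cells were MOLM-13, an established human acute myeloid leukaemia line that carries an internal tandem duplication of the receptor FLT3. They carried 1 of 2 short hairpin RNAs: a negative control, sh-NC, or sh-circMYBL2 (spelled Sh-cricMY1 in the titles), which targets a circular RNA from the MYBL2 locus, and the study's title concerns its part in translation of mutant FLT3. Each hairpin had 2 libraries of input RNA and 2 of ribosome footprints, which are the stretches of RNA that ribosomes shield, so there were 8 libraries in 4 groups of 2. A single hairpin against circMYBL2 was used, and neither the time after its introduction nor the selection of the cells is given in the sources used here. The row of a host gene does not separate a circular RNA from the linear one, so the depletion of circMYBL2 was not analysed here.

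In unstressed cells p53 is bound and marked for destruction by MDM2, itself a p53 target, which closes a negative feedback loop. DNA damage and other stresses free p53, which binds pairs of a 10-base motif near its target genes and raises their transcription. The targets arrest the cell cycle, aid repair, adjust metabolism, or shut p53 off again, and in blood cells the pathway restrains the outgrowth of damaged cells. Several of the 9 genes also answer to other inputs, among them the stress factors ATF4 and CHOP in the case of GADD45A.

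Promoter sequence was available for 6 of the 9 genes in a RefSeq table of build GRCh38.p14. In the 250 bases before each of their 12 annotated starts, the 10-base p53 response element motif was searched with at most 1 mismatch and with its central C and G intact, and because the motif is its own reverse complement both strands were covered. The sequences that held the fullest matches are shown so that the letters of the motif can be seen in 2 of the genes; a match is a description and not a measured binding site. Each is printed 5′ to 3′ on the strand of its gene, with capitals for the matched motif and 5 bases on each side.
MDM2, chr12:68808918-68808985, plus strand: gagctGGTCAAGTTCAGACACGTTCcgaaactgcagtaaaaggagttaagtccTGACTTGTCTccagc
SESN1, chr6:109009023-109009042, minus strand: cgtctGGACAAGTCTccaca
The MDM2 sequence lies at positions -99 to -32 of an internal start of the gene and holds 3 matches with 1 mismatch each, the first 2 of them side by side. Such an adjoining pair was present in 49 of 35116 promoter windows of all genes, or 0.14%, and 3 or more matches were present in 1.82%. SESN1 held 1 match without mismatch, inside the printed stretch, which spans -54 to -35 of 1 of its annotated starts. A single match carries little information, since 39.3% of all windows held at least 1. Matches with 1 mismatch were also found before a start of PPM1D, ZMAT3 and SESN1, while the windows of CDKN1A and BTG2 held none, which says only that these letters are not in those windows.

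Of the 9 genes, 5 were lower in the input RNA of sh-circMYBL2 cells, none was called higher, and 4 did not pass the test. The 5 were GADD45A, CDKN1A, TP53INP1, MDM2 and RRM2B, whose mean FPKM (fragments scaled to gene length and library) changed by -16.1% to -45.4%. Changes are differences of log2(FPKM + 1), sh-circMYBL2 minus sh-NC, from limma's moderated test, called at a Benjamini-Hochberg adjusted p under 0.05 over the 12489 genes with a mean FPKM of at least 1. All 9 passed that filter. Over all those genes 3.96% were called lower and 4.92% higher. The median change was -0.25 over the 9 genes and 0.00 over all genes. The groups of 2 did not overlap for 8 of the 9, lower for 7 and higher for 1, where 30.7% of all genes were wholly lower and 30% wholly higher. With any 1 of the 4 libraries left out, no gene of the whole table passed, so such fits are too small to judge a call. The changes themselves stayed below 0 in those fits, at -0.80 to -0.86 for GADD45A, -0.38 to -0.44 for CDKN1A, -0.34 to -0.47 for TP53INP1, -0.25 to -0.36 for MDM2 and -0.21 to -0.29 for RRM2B. An exact permutation of 2 libraries against 2 cannot give a p below 0.333, so single genes were judged by limma alone.

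**Figure D1:**
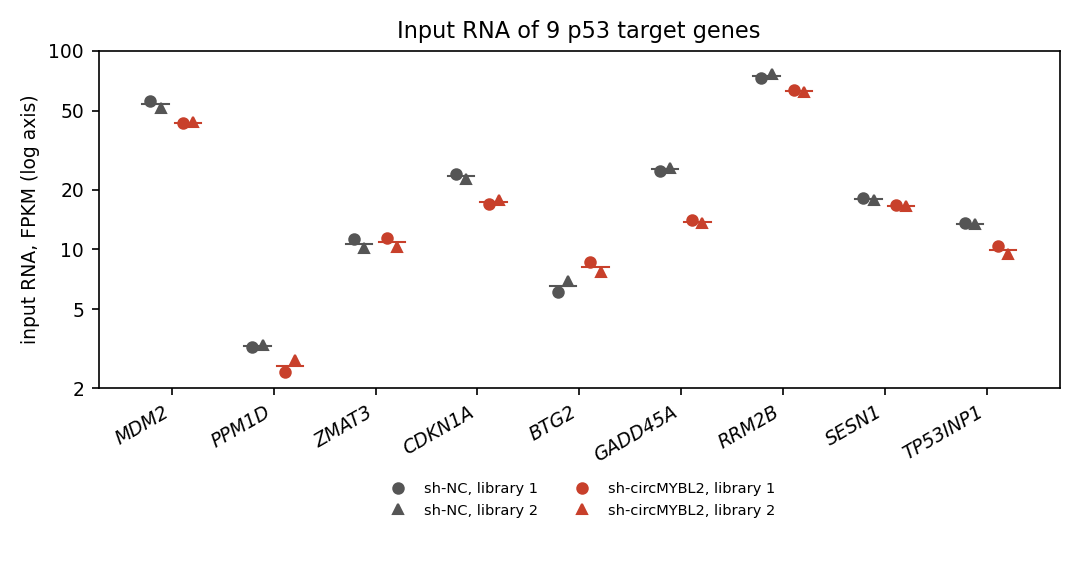
Input RNA level (FPKM, log axis) of each of the 9 genes in each of the 4 input RNA libraries; grey marks sh-NC, red sh-circMYBL2, and bars are means of 2. GADD45A shows the widest gap, from 24.8 and 25.8 down to 14.1 and 13.5, and the points of ZMAT3 are intermingled.

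MDM2, at chr12:68808172-68850686, encodes the ubiquitin ligase that marks p53 for degradation. Its input RNA stood at 55.9 and 51.7 FPKM in the sh-NC libraries and at 43.2 and 43.6 in the sh-circMYBL2 libraries. Both libraries with the circMYBL2 hairpin lay below both controls, with group means of 53.8 ± 2.93 and 43.4 ± 0.256 (SD, n = 2 each). The change of -0.30 (SE 0.05) was called by limma at an adjusted p of 0.041. Between 7956 and 9874 reads stood behind each value, so counting error was small. MDM2 overlaps the carboxypeptidase gene CPM, whose mean moved the other way, from 8.46 to 11.8 FPKM. The strand setting of the read counting is not given in the sources used here, so reads of overlapping genes are not separated with certainty.

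PPM1D, at chr17:60600193-60666280, encodes the phosphatase WIP1, which takes activating phosphates off p53 and its upstream kinases. Its input RNA was low, at 3.23 and 3.31 FPKM in sh-NC against 2.41 and 2.77 in sh-circMYBL2. The groups did not overlap, but the change of -0.25 (95% interval -0.48 to -0.02) had an adjusted p of 0.149 by limma and was not called. It rests on 169 to 240 reads a library. ZMAT3, at chr3:179017223-179072513, encodes an RNA-binding zinc finger protein that acts on splicing and RNA stability. It was measured at 11.3 and 10.1 FPKM in sh-NC against 11.4 and 10.3 in sh-circMYBL2. The values interleaved, and the 95% interval of the change, -0.20 to 0.24, lay above the change of each of the 5 called genes. By limma its adjusted p was 0.895.

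CDKN1A, at chr6:36676463-36687332, encodes p21, the inhibitor of cyclin-dependent kinases through which p53 halts the cell cycle. Its input RNA measured 23.9 and 22.7 FPKM in sh-NC against 16.9 and 17.7 in sh-circMYBL2. The controls stood clear above the other 2 libraries, and the mean changed by -25.8%. The change of -0.41 (SE 0.05) had an adjusted p of 0.025 by limma, on 714 to 997 reads a library. BTG2, at chr1:203305519-203309602, encodes an antiproliferative partner of the deadenylase complex that shortens messenger RNA tails. It was the 1 gene of the 9 that lay wholly higher, at 6.11 and 6.93 FPKM in sh-NC against 8.67 and 7.72 in sh-circMYBL2. Its change of 0.29 (95% interval 0.05 to 0.53) was not called, with an adjusted p of 0.126 by limma.

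GADD45A, at chr1:67685201-67688334, encodes a small acidic stress sensor that binds PCNA, p21 and the kinase MTK1. It showed the largest change of the 9 genes. Its input RNA was 24.8 and 25.8 FPKM in sh-NC against 14.1 and 13.5 in sh-circMYBL2, or 25.3 ± 0.74 against 13.8 ± 0.44 (SD, n = 2 each). The gap between the groups exceeded the spread within either. The change was -0.83 (SE 0.04, 95% interval -0.95 to -0.70) with an adjusted p of 0.00976 by limma, on 406 to 769 reads a library. GADD45A was the only one of the 9 that was still called when the filter on low values was dropped.

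RRM2B, at chr8:102204501-102238961, encodes p53R2, the p53-induced small subunit of ribonucleotide reductase, which supplies deoxynucleotides for repair and for mitochondrial DNA. It was the most abundant of the 9 per length, at the 97th percentile of the 12489 genes in sh-NC. It measured 72.7 and 76.7 FPKM in sh-NC against 63.5 and 61.9 in sh-circMYBL2. The groups did not overlap and the change was modest, -0.25 (SE 0.04), with an adjusted p of 0.0427 by limma. SESN1, at chr6:108984309-109094846, encodes a sestrin, a leucine sensor that restrains mTORC1. Its 18.1 and 17.7 FPKM with sh-NC lay above 16.7 and 16.5 with sh-circMYBL2, a change of -7.14% in the mean. The change of -0.10 (95% interval -0.20 to 0.00) had an adjusted p of 0.174 by limma and was not called. TP53INP1, at chr8:94925972-94949378, encodes a nuclear body and autophagy protein that promotes p53 phosphorylation. It stood at 13.5 and 13.4 FPKM in sh-NC against 10.4 and 9.43 in sh-circMYBL2. Both sh-circMYBL2 libraries were lower, and the change of -0.40 (SE 0.06) had an adjusted p of 0.039 by limma. TP53INP1 overlaps NDUFAF6, a complex I assembly factor, at 7.46 and 7.26 FPKM in the 2 groups.

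In the order of input RNA level in sh-NC, RRM2B was followed by MDM2, GADD45A, CDKN1A, SESN1, TP53INP1, ZMAT3, BTG2 and PPM1D. Neighbours in that order did not overlap in their 2 libraries; the closest were GADD45A and CDKN1A, at 25.3 and 23.3 FPKM. In sh-circMYBL2 that order changed. CDKN1A at 17.3 and SESN1 at 16.6 FPKM lay above GADD45A at 13.8, and ZMAT3 at 10.9 above TP53INP1 at 9.94. There the libraries of ZMAT3 and TP53INP1 overlapped, and those of CDKN1A and SESN1, at 17.3 ± 0.609 and 16.6 ± 0.159 (SD, n = 2 each), came close without overlap. PPM1D was at the 36.3 percentile of all tested genes in sh-NC, and the other 8 were above the median gene.

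Relatives and partners of the 9 proteins were measured alongside. GADD45B was at 10.4 and 11.2 FPKM in the 2 groups (change 0.09, adjusted p 0.651 by limma), so the ratio of GADD45A to GADD45B was 2.43 in sh-NC against 1.24 in sh-circMYBL2. MDM4, the partner that blocks p53 without degrading it, fell from 27.4 ± 0.0691 to 22.2 ± 0.539 (SD, n = 2 each), a change of -0.29 with an adjusted p of 0.027 by limma. The ratio of MDM2 to MDM4 was 1.96 with sh-NC and 1.95 with sh-circMYBL2. SESN2 stood at 6.12 and 7.26 FPKM in sh-NC against 4.23 and 3.29 in sh-circMYBL2, without overlap, but its change of -0.69 (SE 0.14) had an adjusted p of 0.0588 by limma. In input RNA the other subunits of ribonucleotide reductase moved against RRM2B. RRM2, the S-phase small subunit, rose from 1.39 ± 0.0474 to 5.53 ± 0.101 (change 1.45, adjusted p 0.0083 by limma), and RRM1, the large subunit, from 4.80 ± 0.291 to 10.3 ± 0.448 (change 0.97, adjusted p 0.0117). RRM2B was thus 53.8 times RRM2 per length with sh-NC and 11.3 times with sh-circMYBL2. CDKN1B, which encodes p27, was at 27.3 and 28.3 FPKM (adjusted p 0.355 by limma), BTG1 at 10.9 and 9.67 (adjusted p 0.156), SESN3 at 1.19 and 1.65 (adjusted p 0.229) and GADD45G at 1.34 and 1.14 (adjusted p 0.551). CDKN1C and TP53INP2 were below the filter.

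The remaining pathway was read through lists of genes other than the 9. Of 24 regulators of p53, all were tested, 1 was higher and 1 lower, and the median change was -0.02. The 2 were CHEK1, the checkpoint kinase, which rose from 2.67 ± 0.147 to 7.04 ± 0.11 FPKM (SD, n = 2 each, change 1.13), and MDM4. Of 71 further targets in 3 lists, 49 passed the filter, 5 were lower and 4 higher. These shares of 10.2% and 8.16% compare with 3.96% and 4.92% over all genes, and the median change of -0.03 lay near the 0.00 of all genes. Among 16 tested apoptosis targets 3 were lower and 1 higher. The 3 were BBC3, which encodes the BH3-only protein PUMA (9.79 ± 0.368 to 6.94 ± 0.531 FPKM, adjusted p 0.0402 by limma), and the TRAIL receptors TNFRSF10B (25.0 ± 0.204 to 19.8 ± 1.18, adjusted p 0.0427) and TNFRSF10D (15.8 ± 0.272 to 11.7 ± 0.191, adjusted p 0.0198). The executioner caspase CASP6 rose, from 1.30 to 2.35. Among 15 tested targets that act on the cell cycle and growth, RPS27L fell from 24.7 to 20.6 FPKM and TRIM22 rose from 21 to 25.3. Among 18 that act in repair and metabolism, PCNA, the sliding clamp of DNA replication, rose from 85.0 ± 3.55 to 134 ± 1.18 (change 0.65, adjusted p 0.0109 by limma), and the helicase gene ASCC3 fell from 33.7 ± 0.714 to 26.8 ± 0.357. PCNA also serves DNA replication itself.

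Genes that p53 holds down indirectly, through p21 and the DREAM repressor complex, were mostly called higher in input RNA. Of 18 tested, 11 were called higher, none lower, and all 18 lay above 0, with a median change of 0.72. Over all genes 4.92% were called higher and 3.96% lower. TOP2A, topoisomerase II alpha, rose from 5.10 ± 0.514 to 12.2 ± 0.55 FPKM (SD, n = 2 each). The phosphatase CDC25A rose from 1.11 ± 0.0994 to 3.26 ± 0.0917, and CENPF, a kinetochore protein, from 4.89 ± 0.152 to 8.80 ± 0.0119. The list of stress genes driven by ATF4 and CHOP was mostly called lower in input RNA. Of 17 tested, 13 were called lower, none higher, and all 17 lay below 0, with a median of -0.56. TRIB3, a pseudokinase, fell from 11 ± 0.196 to 2.14 ± 0.207. The transcription factor ATF5 fell from 30.8 ± 0.466 to 12.2 ± 0.473, DDIT4, an mTORC1 inhibitor, from 39.3 ± 1.59 to 16.7 ± 0.434, and the cystine transporter SLC7A11 from 11.4 ± 0.0314 to 4.54 ± 0.258. SESN2 belongs both to this list and to the p53 targets. Whether the lower input RNA of GADD45A moved with p53 or with the other inputs of these genes was not tested. The part of p53 or p21 in the changes of the p21 and DREAM list was not tested either.

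**Figure D2:**
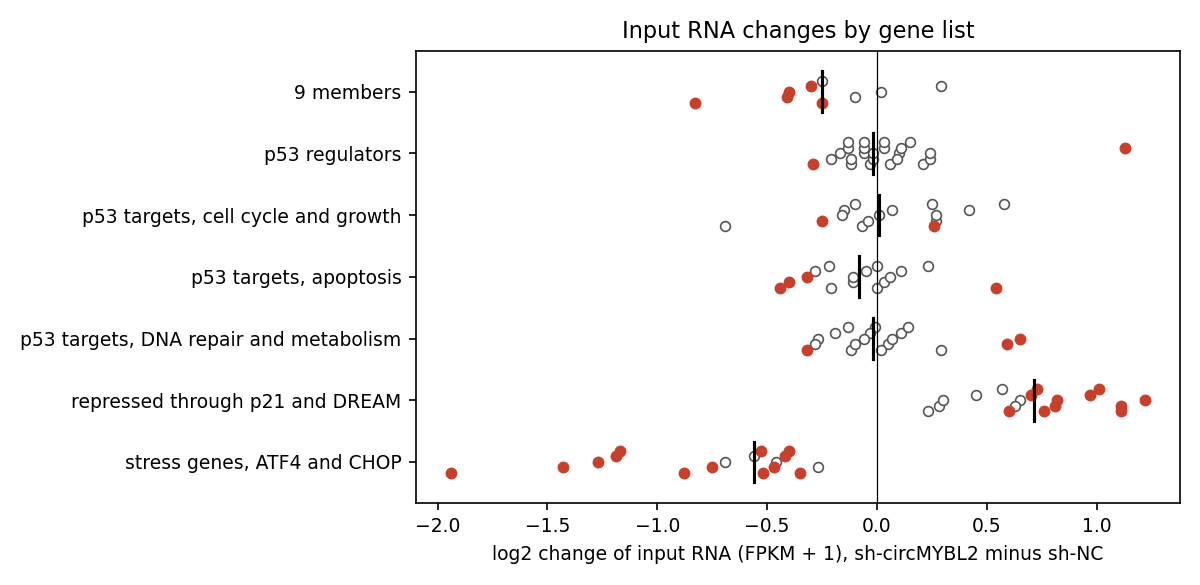
Change of input RNA, log2(FPKM + 1), sh-circMYBL2 minus sh-NC, for each tested gene of the 9 and of 6 lists; red points were called by limma, open points were not, and black ticks are medians. The medians are -0.25 for the 9 genes, 0.72 for the genes repressed through p21 and DREAM and -0.56 for the ATF4 and CHOP list, and the p53 target lists centre near 0.

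By the shape of their values over the 4 input RNA libraries, some other protein-coding genes ran close to the 5 called ones. Likeness was the root mean square distance between centred log2(FPKM + 1) values, over 5281 genes with a mean FPKM of at least 5, and with 4 libraries many genes match closely. The nearest to GADD45A were PVR at 0.0227, LONP1 at 0.0268 and PAG1 at 0.0273. For CDKN1A they were ZNF561 at 0.0115, TNFRSF10D at 0.0185 and CYBB at 0.023. TNFRSF10D is itself a p53 target in the apoptosis list. MDM2 was most like RABGGTB, TPD52 and MS4A7, at 0.0107 to 0.0129. TP53INP1 was most like DPH3, ZNF234 and BORCS7, at 0.0123 to 0.0171, and RRM2B most like TRIM16, PIK3CB and WBP4, at 0.00749 to 0.00964.

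The libraries of the 2 assays differed greatly in depth. Input RNA held 13501759 to 14600107 reads on genes in each library. Footprints held 80143 and 300381 in sh-NC against 222821 and 714986 in sh-circMYBL2, of which microRNA genes took 42.7%, 57.2%, 32.8% and 12.2%. The footprint columns of the sh-circMYBL2 group do not carry the replicate number, so these libraries are called a and b. The 2 groups therefore differ in footprint depth and makeup as well as in hairpin, and the part of that difference in the footprint results was not tested. For the 9 genes together there were 67 and 105 footprint reads in sh-NC against 171 and 1078 in sh-circMYBL2. Of 11 myeloid marker genes 10 had a mean of at least 1 FPKM in input RNA, summing to 785 to 825 with sh-NC and to 972 to 1010 with sh-circMYBL2; CD14 was at 0.0399 or less. By limma FLT3 (change 0.40, adjusted p 0.0232), ITGAM (0.65, 0.0228) and CEBPA (0.20, 0.0468) were called higher among them. LYZ, the most abundant, had a change of 0.33 (adjusted p 0.0554), and MPO, CD33, SPI1 and MEIS1 had changes of -0.35, -0.14, -0.04 and -0.04 without a call. None of 5 erythroid and none of 5 lymphoid markers reached that level, and 1 of 6 adherent-cell markers, ACTA2, did, with a called change of -0.36 (adjusted p 0.0463 by limma). The part of these marker changes in the results was not tested. In such bulk libraries fewer cells of a kind and less RNA in each cell cannot be told apart.

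In footprints none of the 9 genes was called by limma, and neither was any other gene of the 9431 tested (0% called higher, 0% lower). At an unadjusted p under 0.05 there were 1212 genes, none of them among the 9. Values are RPKM, reads scaled to gene length and library, and changes are on the log2(RPKM + 1) scale. The median change was 0.27 over the 9 genes and 0.56 over all genes. Over the 4438 genes with a read in all 4 libraries it was -0.01, and over the 6 of the 9 among them 0.13. Changes are therefore best read against these medians rather than against 0. The groups did not overlap for 2 genes that were lower and 1 that was higher, where 10.9% of all genes were wholly lower and 30.7% wholly higher.

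**Figure D3:**
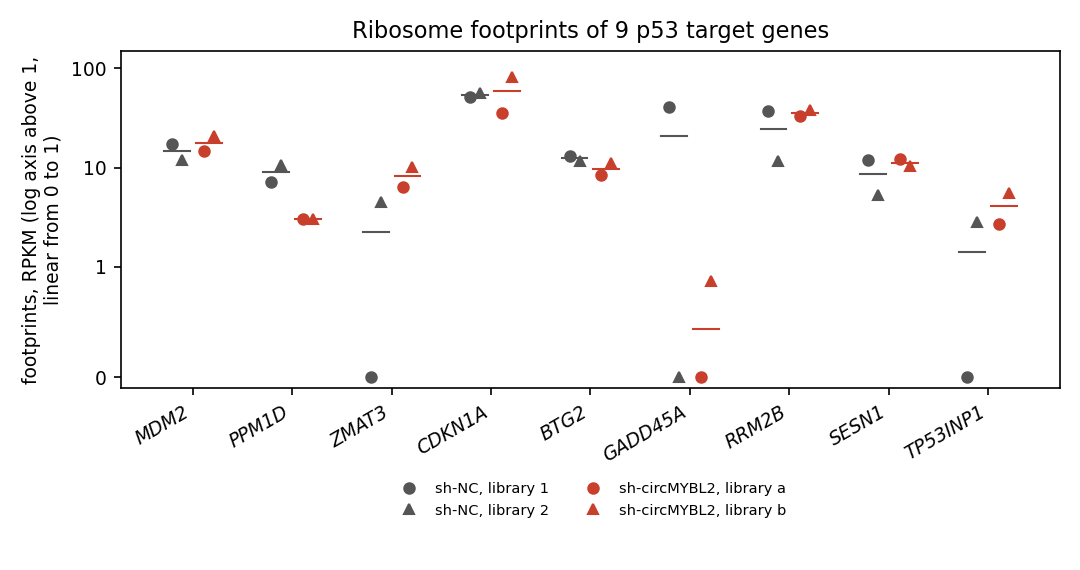
Ribosome footprint level (RPKM, log axis above 1 and linear from 0 to 1) of the 9 genes in each of the 4 footprint libraries; grey marks sh-NC, red sh-circMYBL2, and bars are means of 2. CDKN1A is the highest of the 9 in each of the 4 libraries, and GADD45A ranges from 0 to 41.1.

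Among the feedback genes the footprint values leaned in both directions, without a call. MDM2 had 17.4 and 11.8 RPKM in sh-NC against 14.6 and 20.8 in sh-circMYBL2, from 19, 29, 50 and 308 reads. The groups overlapped, and the change of 0.27 (95% interval -1.12 to 1.65) had an adjusted p of 0.84 by limma. An interval so wide includes the -0.30 seen in input RNA. PPM1D had 7.23 and 10.7 RPKM in sh-NC against 3.06 and 3.03 in sh-circMYBL2, from 3, 10, 4 and 17 reads. Both sh-circMYBL2 libraries lay below both controls, as in input RNA, yet the change of -1.28 (SE 0.63) had an adjusted p of 0.539 by limma. When reads were summed within each group and scaled, the ratio was 0.315. Its exact 95% counting interval, 0.151 to 0.685, covers counting error and not the spread between libraries. Such intervals also excluded 1 for GADD45A (0.00565 to 0.293), MDM2 (1.08 to 2.01), RRM2B (1.29 to 2.89) and ZMAT3 (1.5 to 7.22). Those of CDKN1A, SESN1, BTG2 and TP53INP1 included 1. The share of all genes with an interval that excludes 1 was not computed, so these exclusions have no background and are not calls. The ratios also rest on the authors' scaling totals, and other totals were not tried for them. Most of the summed sh-circMYBL2 reads came from library b, for MDM2 308 against 50 from library a. ZMAT3 had 0 and 4.47 RPKM in sh-NC against 6.41 and 10.1 in sh-circMYBL2, from 0, 8, 16 and 109 reads. Its groups did not overlap, higher with sh-circMYBL2, and the adjusted p was 0.587 by limma. The 0 in the first control library allows up to 3.78 RPKM, counting 3 reads as the limit.

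Among the arrest genes CDKN1A was the best covered in footprints for its length in each of the 4 libraries. It had 51.8 and 56.5 RPKM in sh-NC against 35.5 and 82.2 in sh-circMYBL2, from 13, 32, 28 and 279 reads. The 2 sh-circMYBL2 libraries lay on either side of the controls. The change of 0.00 (95% interval -1.49 to 1.48, adjusted p 0.999 by limma) took either sign under other settings and left a fall like that of its input RNA, -0.41, within its interval. BTG2 had 13.2 and 11.7 RPKM in sh-NC against 8.41 and 11.1 in sh-circMYBL2, from 3, 6, 6 and 34 reads. Its groups lay apart in the direction opposite to its input RNA, with a change of -0.34 (SE 0.50) and an adjusted p of 0.796 by limma. GADD45A, the gene with the clearest fall in input RNA, had almost no footprints. It had 41.1 and 0 RPKM in sh-NC against 0 and 0.868 in sh-circMYBL2, from 7, 0, 0 and 2 reads. All 7 control reads came from 1 library, and the 0 in the other allows up to 7.81 RPKM. The change of -2.25 (95% interval -7.73 to 3.23) had an adjusted p of 0.667 by limma, and the interval includes the -0.83 of input RNA.

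RRM2B had 37.2 and 11.7 RPKM in sh-NC against 32.7 and 38.0 in sh-circMYBL2, from 17, 12, 47 and 235 reads. The control libraries differed from each other more than the sh-circMYBL2 libraries did from the higher of them, and the change was 0.72 (SE 0.68, adjusted p 0.686 by limma). SESN1 had 11.9 and 5.26 RPKM in sh-NC against 12.1 and 10.3 in sh-circMYBL2, from 5, 5, 16 and 59 reads, and the groups overlapped. TP53INP1 had 0 and 2.85 RPKM in sh-NC against 2.72 and 5.54 in sh-circMYBL2, from 0, 3, 4 and 35 reads, and the groups overlapped as well. Without the second sh-NC footprint library the changes of RRM2B and SESN1 were both -0.08, against 0.72 and 0.44 with it.

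As a description within each group, the ratio of footprint to input RNA level was ranked among 5289 protein-coding genes with a mean of at least 5 FPKM, since the tables were normalized separately and only ranks carry over. CDKN1A stood at the 93rd percentile with sh-NC and at the 98.1 percentile with sh-circMYBL2. BTG2 stood at 90.1 and 78.4, while MDM2 was at 35.3 and 29.6, RRM2B at 40.2 and 42.8, and SESN1 at 52.4 and 51.7. TP53INP1 was at 19.2 and 30.5 and ZMAT3 at 29 and 58.4. The sh-NC ranks of TP53INP1, ZMAT3, BTG2 and SESN1 rest on 3, 8, 9 and 10 footprint reads, so shifts in them are uncertain. GADD45A went from 69.9 to 1.72, on 7 and 2 footprint reads. Both levels were scaled to the same gene length, 13269 bases for MDM2 and 3050 for CDKN1A. The coding part of that length was not taken into account, so rank differences between genes are not a measure of translation alone.

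Translational efficiency was tested as the interaction of hairpin and assay over all 8 libraries, that is, the change in footprints beyond the change in input RNA. None of the 9 genes was called, while 5.05% of the 8260 genes tested were called higher and 0.266% lower. At an unadjusted p under 0.05 there were 1618 genes, again none of the 9. The median was 0.54 over the 9 genes and 0.57 over all genes, and 0.47 and 0.03 over those with a read in all 4 footprint libraries, 6 genes and 4200 genes. PPM1D came nearest to the threshold, with a change of -1.03 (SE 0.42, 95% interval -2.07 to 0.02) and an adjusted p of 0.262 by limma. For MDM2 the value was 0.57 (95% interval -0.41 to 1.55, adjusted p 0.528 by limma), and for CDKN1A it was 0.41 (-0.97 to 1.79, adjusted p 0.75). BTG2 had -0.63 (SE 0.36), RRM2B 0.97 (SE 0.72), SESN1 0.54 (SE 0.53), ZMAT3 1.94 (SE 1.11) and TP53INP1 1.73 (SE 0.95). GADD45A had -1.42 with an SE of 2.31. This fit used a single variance per gene for both assays, although footprints varied more than input RNA, so these intervals can be too narrow. For PPM1D the SE of 0.42 lay below the 0.63 of its footprint change alone. When libraries were weighted by assay, PPM1D had an adjusted p of 0.621 by limma, and 1 gene was called in all.

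**Figure D4:**
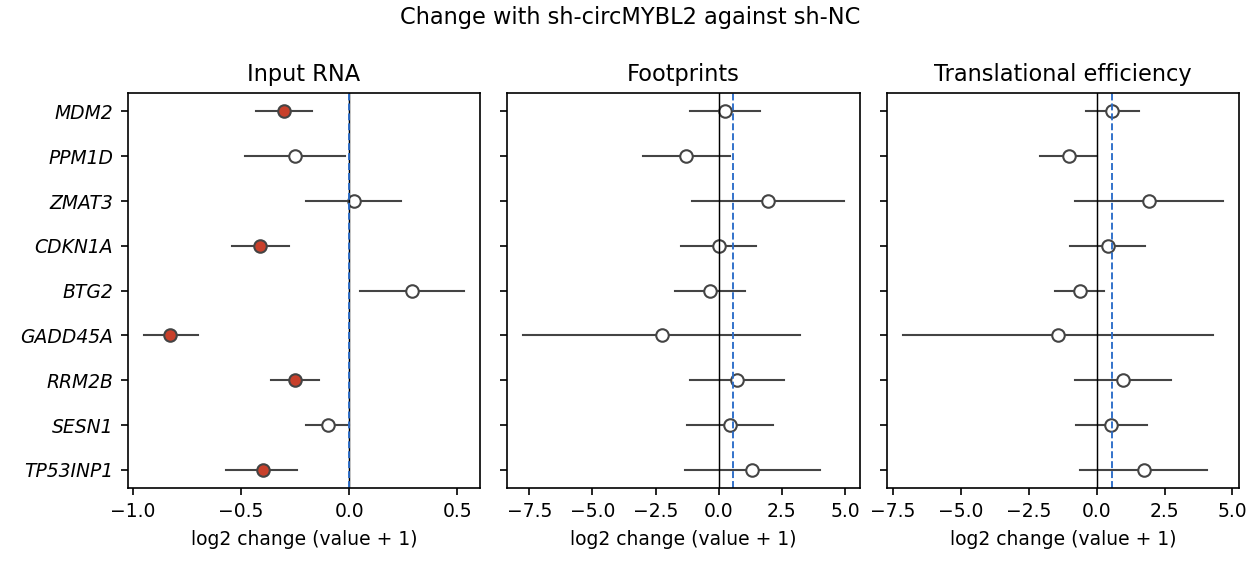
Change with sh-circMYBL2 against sh-NC, on the log2(value + 1) scale, in input RNA, footprints and translational efficiency; points are estimates, lines 95% intervals from limma, filled points were called, and the dashed blue line is the median of all genes tested. The input RNA intervals are narrow and 5 lie below 0 with a call, whereas the footprint intervals span 0 for all 9 genes.

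These results turned on single control libraries. Without the first sh-NC footprint library 3 of the 9 were called in translational efficiency, RRM2B (1.77, adjusted p 0.00388 by limma), SESN1 (1.06, 0.0113) and PPM1D (-1.28, 0.00982), but so were 37.2% of all genes. Without the second there were 4, GADD45A (-4.12), TP53INP1 (2.70), ZMAT3 (3.16) and PPM1D (-0.77), with 60.2% of all genes called. The change of PPM1D lay below 0 in both fits, but they share all libraries except the sh-NC footprints and so are not independent. In these fits the lone control library is assumed to vary like the other groups. In footprints no gene of the 9431 tested was called in the main fit, and so none in the 6 lists. In translational efficiency with all 8 libraries, 1 of 24 p53 regulators and 1 of 13 ATF4 and CHOP genes were called higher. None was called in the other lists, where 5.05% of all genes were called higher.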

How the data were processed

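Sample titles gave the groups. Library preparation used kits for rRNA depletion and for small RNA, per the labels' protocols. Reads were handled with cutadapt, Bowtie, HISAT2, featureCounts and DESeq2 on build hg38, per the submitters' processing notes; no version, role or strand setting is given in the sources used here. The deposited footprint table holds RPKM values and the deposited input RNA table FPKM values. Both were scaled by the authors to gene length and a factor for each library. Read back from the values, the footprint scaling totals were 82265 and 185632 in sh-NC against 258923 and 1113399 in sh-circMYBL2. They differ from the footprint reads on genes, 80143 and 300381 against 222821 and 714986. Separate cultures are not named for the 2 libraries of a group, so p-values measure only the spread between these libraries.

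Values were taken as log2(value + 1), genes with a mean under 1 over the 4 libraries of an assay were left out, and a linear model with a trended prior variance (limma 3.58.1, R 4.3.3, two-sided) was fitted to all remaining genes, with Benjamini-Hochberg adjustment at 0.05. Scripts were tested on simulated data. Reads were recovered from the RPKM and FPKM steps, with 98.6% to 99.4% of footprint and 97.8% to 98.9% of input RNA values of microRNA genes whole to within 0.02 reads; 1 of 30194 genes above 0 in a library had no whole solution. Intervals and limits on reads cover counting error only. Alternatives were another pseudocount, filter or scaling, voom on recovered reads, library weights, a replicate block, and leaving out each library.

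The 9 genes, the lists and the tests were chosen with earlier results of these data known, so they are no independent evidence of a direction. All 9 were described. From each list, up to 4 genes past the threshold with the smallest p in input RNA were named. Gene positions and promoters are RefSeq's for GRCh38.p14. Some genes that the rule would name are not reported here.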

Additional observations from a re-analysis of the deposited data

How the results depend on the processing

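In input RNA, 1109 genes were called in all, 97 without the filter on low values, 3249 by voom on recovered reads, 0 with the replicate block and 0 whichever library was left out. Of the 9 genes 5 were called, 1 without the filter (GADD45A), 0 with the replicate block and 0 whichever library was left out; voom added PPM1D (-0.33, adjusted p 0.0361) and BTG2 (0.33, adjusted p 0.0201). With 1 input RNA library left out, adjusted p by limma was 0.0718 to 0.0957 for GADD45A and 0.0926 to 0.176 for the other 4. Replicate numbers did not pair the input RNA libraries, whose deviations correlated at 0.03 over 12489 genes; with the block GADD45A had an adjusted p of 0.0502. No paired analysis was possible for footprints or translational efficiency because 2 columns carry no replicate number. ZMAT3 ranged from -0.0547 to 0.0935 with 1 library left out.

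In footprints 0 genes were called, 2 after quantile normalization, 33 by voom and 0 to 746 with 1 library left out (746 without library a, 712 without b), with 0 of the 9 genes among them each time. CDKN1A became 0.00638 with a pseudocount of 5, 0.43 after quantile normalization and 0.0786 by voom, and with 1 library left out it ranged from -0.60 to 0.59, SESN1 from -0.0797 to 0.96 and RRM2B from -0.0761 to 1.52. In translational efficiency 439 genes were called, 853 and 2 with pseudocounts of 0.1 and 5, 42 at a filter of 5, 0 after quantile normalization, 207 by voom, 1 with library weights and 0 to 4953 with 1 library left out. Of the 9 genes, 0 to 4 were then called, and CDKN1A ranged from -0.187 to 1. GADD45A had no footprint value without the first sh-NC library, since it fell below the filter. The cause of these shifts was not tested. No gene of the 9 had more than 32 footprint reads in a control library; the part of depth in the wide footprint intervals was not tested.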
